A study of Oryza sativa with 2 samples.

Results

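The beta-glucosidase (BGLU) family of rice was followed in leaves of seedlings that carry an OsEATB transgene and of nontransgenic seedlings. Its members were taken as the genes whose symbol or synonym in a rice gene table (assembly ASM3414082v1) is BGLU followed by a number, with or without the prefix Os. The rule found 31 of 39387 genes, all protein-coding and spread over 11 chromosomes. Of these, 27 had a probe set, among 17905 genes measured on the arrays. BGLU2, BGLU4, BGLU21 and BGLU24 had none tied to them and are not analysed here. The name BGLU1 is a synonym of 2 genes, and here LOC4333841 (Os3bglu7) is called BGLU7 and LOC4324050 (Os1bglu1) is called BGLU1.

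Plant beta-glucosidases of glycoside hydrolase family 1 cut a terminal glucose from small molecules and short sugar chains. Plants store hormones, lignin precursors and defence compounds as glucosides, which are mostly inactive and soluble, and beta-glucosidases release the active molecule. Other members act on oligosaccharides of the cell wall or move glucose from one acceptor to another. In grasses the family is known for releasing toxic aglycones in wounded leaves and for freeing jasmonate, salicylate, abscisate and gibberellin conjugates.

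Both groups were cultivar indica 9311 at the stage of 4 leaves, kept at 28 °C with 14 h of light and 10 h of darkness in diluted Murashige and Skoog medium. The groups differed in genotype: the transgenic plants carry OsEATB, which encodes a transcription factor of the ERF family known in rice for a link between ethylene response and gibberellin, and the control plants were nontransgenic. Each group was measured on 1 array with leaf RNA of 10 plants, so that no test between groups exists and no spread between plants or arrays is known. The sources used here give neither the promoter of the transgene nor the number of transgenic lines, and no probe set was tied to OsEATB, which leaves the labels without a check from the gene itself.

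Signals are given on the log2 scale, and a log2 ratio is the transgenic minus the nontransgenic value, so that 1 means 2-fold. Values under the 40th percentile of an array (4.41 nontransgenic, 4.61 transgenic) were raised to that floor before ratios were taken, and a ratio with 1 side at the floor is a lower bound of the difference. A gene passed the level filter if its probe set reached the median of an array (5.16 and 5.32) at least once. Probe sets differ in how well they bind, so a signal is compared between arrays and not between genes. In bulk leaf RNA, fewer cells of a type and less RNA per cell cannot be told apart. All 6 measured leaf markers of photosynthesis were bright on both arrays, with log2 signals from 13.79 to 16.26. Of 6 seed markers, GLUA1, GluB4 and RAG1 were at the floor on both arrays, whereas GLB1 (12.27 and 11.87), GLUA2 (10.96 and 11.23) and RAG2 (7.38 and 6.48) were above it, and 0 of the 6 had a 2-fold ratio. Summed linear signals of the seed list were 7129 and 6252, and those of the root list were 6828 and 7488. The 3 passing root markers went both ways, with NRAMP5 3.12-fold lower, Lsi1 1.92-fold higher and SWEET1B at a log2 ratio of 0.08. Of the 2 passing shoot meristem and stem markers OSH6 was 2.47-fold higher, and of the 4 passing flower and anther markers 1 was higher and 2 were lower. The summed signals of the last 2 lists were 1840 and 2824, and 3540 and 3649. Of these markers, NRAMP5 (6.63 and 4.99) and OSH6 (4.66 and 5.97) passed the level filter through 1 array alone. Passing in that way favours ratios away from 0, so theirs carry no weight. The actin control probe sets at the 3′ end exceeded those at the 5′ end in log2 signal by 4.85 for nontransgenic and 5.51 for transgenic leaves, and 27 hybridisation control probe sets were higher on the transgenic array by a median of 0.90. The part of these differences in the ratios below was not tested.

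Most beta-glucosidase genes had similar signals in both leaf samples. Of the 27 measured members, 24 passed the level filter, and 19 of these had a ratio under 2-fold, from -0.88 to 0.68 on the log2 scale. BGLU26, BGLU30 and BGLU33 were higher in the transgenic leaves by 2-fold or more, and BGLU14 and BGLU19 were lower by 2-fold or more. The higher members were 12.5% of the 24, against 5.99% of all 15170 genes that passed, and the lower members were 8.33%, against 4.42%. BGLU19, BGLU30 and BGLU33 passed through their brighter array alone, with the other signal at or near the floor. A gene that passes in that way is picked for a difference, so these shares carry no weight as support. With lowess centring fitted on passing probe sets, 1 member (BGLU26) was 2-fold higher and 2 were lower, beside 641 higher and 959 lower of all passing genes in place of 908 and 670. Centred on the hybridisation controls instead of the authors' scaling, which moved the median log2 ratio of all passing genes to -0.92, BGLU26 was the 1 member 2-fold higher and 9 were 2-fold lower, so every direction given here is relative to the authors' scaling.

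The median log2 ratio of the 24 passing members was 0.09, against -0.01 over all passing genes. A log2 ratio above 0 was found for 14 members and one below 0 for 10. In size, regardless of sign, the median log2 ratio was 0.31 for the members and 0.27 for all passing genes. The members thus spread about as much as other genes on these arrays. The members were also counted by brightness. Of the 12 members at or above the 75th percentile on at least 1 array, 1 had a 2-fold ratio (8.33%), against 4.82% of 10554 such genes in all. Of the 12 passing members below it on both arrays, 4 had a 2-fold ratio (33.3%), against 23.2% of 4616 genes. Of these 4, BGLU19, BGLU30 and BGLU33 passed through 1 array alone, as above, so the filter itself raises both shares and no effect of brightness is read from them.

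**Figure D1:**
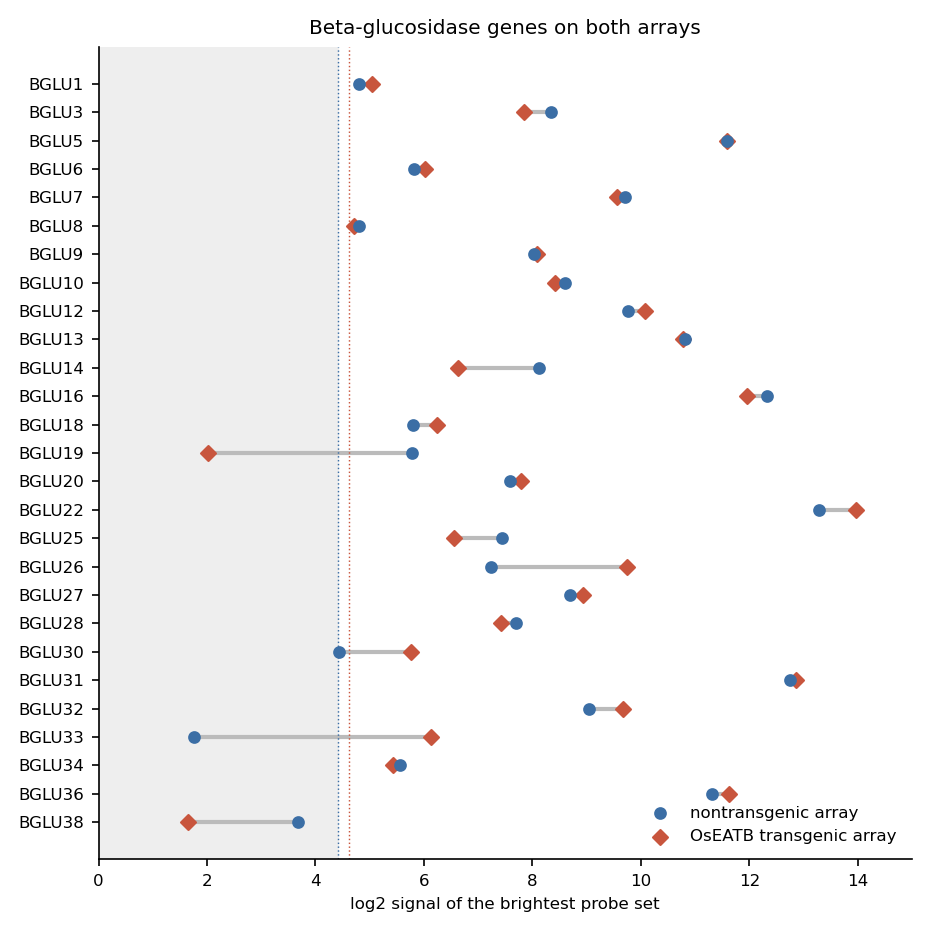
Log2 signal of the brightest probe set of each of the 27 measured beta-glucosidase genes (x axis) on the nontransgenic (circles) and OsEATB transgenic array (diamonds), 1 array each; dotted lines mark the floor of each array and grey the range under the nontransgenic floor of 4.41. The widest gap between signals that both lie above the floor is that of BGLU26, while BGLU19 and BGLU33 each have 1 signal under the floor and BGLU38 has both.

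BGLU26 (Os7bglu26, LOC4344146) had the largest ratio among the passing members once signals under the floor were raised to it. Its enzyme is a rice family 1 hydrolase with beta-mannosidase as well as beta-glucosidase activity. The log2 signal was 7.24 in nontransgenic and 9.74 in transgenic leaves, 5.63-fold higher in the latter, from linear signals of 151 and 853. Both values lay above the median of their array. Among the 759 passing genes of like brightness, the 5th to 95th percentile of log2 ratios ran from -0.92 to 0.94, and the 2.49 of BGLU26 lay above it. The gene was read by 1 probe set, so no further reading within the arrays exists.

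The next group acts on glucosides of lignin precursors. Os4BGlu14, Os4BGlu16 and Os4BGlu18 of rice (BGLU14, BGLU16 and BGLU18) are known as monolignol beta-glucosidases, which release alcohols such as coniferyl and sinapyl alcohol from their glucosides. BGLU14 (LOC4336388) had log2 signals of 8.11 in nontransgenic and 6.62 in transgenic leaves, 2.81-fold lower in the latter, and both signals lay above the array medians. Its log2 ratio of -1.49 lay below the 5th to 95th percentile of genes of like brightness (-1.23 to 1.01). BGLU16 (LOC4336389) was bright, at 12.32 and 11.96 on its brightest probe set, which may cross-hybridise, and 11.95 and 11.41 on the other, which gave log2 ratios of -0.36 and -0.54. BGLU18 (LOC4336391) was dim, at 5.79 and 6.25, with a log2 ratio of 0.45. Of the 3 genes of this role, the signal of 1 was thus 2.81-fold lower, and the ratios of the other 2 were under 2-fold and of opposite sign. Those 2 ratios lay within the 5th to 95th percentile of genes of like brightness. Centred on the hybridisation controls, BGLU14, BGLU16 and BGLU18 had log2 ratios of -2.40, -1.26 and -0.45. Whether the 3 genes share a direction is therefore not read from these arrays.

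Several members free hormones from glucose conjugates. BGLU13 (Os4bglu13, LOC4336146), which releases tuberonic acid, a hydroxylated jasmonate, from its glucoside, had log2 signals of 10.81 and 10.78. BGLU12 (Os4bglu12, LOC4336145), a wound-induced enzyme that acts on tuberonic and salicylic acid glucosides and on cell wall oligosaccharides, had 9.77 and 10.08, a log2 ratio of 0.30. BGLU6 (Os3bglu6, LOC4332041), which can hydrolyse a gibberellin glucose ester, had 5.82 and 6.01. These 3 genes thus had ratios under 2-fold on their brightest probe sets. A dimmer probe set of BGLU12 read 3.94, under the floor, and 5.53, which gave a log2 ratio of at least 1.12, and one of BGLU13 read 5.09 and 5.68, a ratio of 0.59. For both genes the bright and the dim reading therefore differed, for BGLU13 also in sign. Both dim probe sets passed the level filter through the transgenic array alone, so their ratios had to be above 0. No disagreement is read from them.

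Of the enzymes of oligosaccharides, BGLU7 (LOC4333841), which cuts short chains of beta-linked glucose, had log2 signals of 9.70 and 9.55 and a ratio of -0.15. Its neighbour BGLU8 (LOC4333842) was near the floor on both arrays, at 4.81 and 4.71, and did not pass the filter. BGLU7 thus differed little between the samples, and BGLU8 was too dim to compare.

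BGLU31 (Os9bglu31, LOC4347545) encodes a transglucosidase that passes glucose between phenolic acids, flavonoids and hormones. Its log2 signals were 12.75 and 12.86, a ratio of 0.12. BGLU32 (LOC4347546), the next gene on chromosome 9, had 9.04 and 9.68 on a probe set that may read several transcripts, a ratio of 0.64, and 5.08 and 6.28 on a dimmer probe set without that mark, a ratio of 1.20. BGLU33 (LOC4347547), next to BGLU32, had 1.76 in nontransgenic leaves, under the floor, and 6.14 in transgenic leaves, which makes it at least 3.30-fold higher. All 4 readings of these 3 adjoining genes were higher in the transgenic leaves, from 1.08-fold for BGLU31 to the bound for BGLU33, although lowess centring fitted on passing probe sets turned BGLU33 to a log2 ratio of -0.72 and centring on the hybridisation controls turned BGLU31 to -0.79 and BGLU32 to -0.27. BGLU33 and the dimmer probe set of BGLU32 passed the filter through the transgenic array alone. The filter thus set the sign of both readings, and they add nothing to a shared direction. The log2 ratio of BGLU32 on its brightest probe set lay inside the 5th to 95th percentile of genes of like brightness (-0.83 to 0.84).

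BGLU36 (Os11bglu36, LOC4351127) has the synonym OsSFR2, and in Arabidopsis SFR2 remodels galactolipids of the chloroplast envelope and is needed for freezing tolerance. Its 3 probe sets had log2 signals of 11.31 and 11.63, of 9.79 and 9.48, and of 8.04 and 8.29. The probe set of 9.79 and 9.48, which had the ratio below 0, may read several transcripts, and the others carry no such mark. The ratios of 0.32, -0.31 and 0.25 were all under 2-fold and differed in sign, so no direction can be given for this gene.

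For the remaining members no enzyme role is given. BGLU22 (LOC4338560) had log2 signals of 13.29 and 13.97, 1.60-fold higher in the transgenic leaves. That ratio of 0.68 lay above the 5th to 95th percentile of genes of like brightness, -0.31 to 0.55, although it is under 2-fold. Bright genes as a group were also shifted, with a median log2 ratio of 0.17 in that group of 759. The leaf markers, which are among the brightest genes, had a median of 0.41, and the part of that shift in the ratio of BGLU22 was not tested.

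BGLU30 (LOC4347441) had log2 signals of 4.43 and 5.77, 2.53-fold higher. The first value lies just above the floor of 4.41, and the probe set may read several transcripts. Its second probe set read 2.24 and 4.88 and did not pass. BGLU19 (LOC4338556) had 5.77 in nontransgenic and 2.02, under the floor, in transgenic leaves, at least 2.23-fold lower. BGLU30 passed the filter through the transgenic array alone, so its ratio had to be above 0. BGLU19 passed through the nontransgenic array alone, which favours a ratio below 0.

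BGLU5 (LOC4326948) was the most even of the passing members, at 11.58 and 11.59 on one probe set and 11.47 and 11.36 on the other. BGLU9 (LOC9269478) also differed little, at 8.04 and 8.09. BGLU10 (LOC4336142) had 8.59 and 8.42 on the probe set that stands for it. That ratio of -0.18 was joined by -1.05 on a probe set of 8.77 and 7.71, so the sign was shared and the size was not. A dimmer probe set of 5.68 and 5.26 had a ratio of -0.41. It passed the filter through the nontransgenic array alone, which favours a ratio below 0, so it adds nothing to the shared sign. BGLU3 (LOC4327593) had 8.35 and 7.85 and, on a further probe set that may cross-hybridise, 7.55 and 7.03, ratios of -0.50 and -0.52. The third probe set of BGLU3 read 0.53 and 5.28 and did not pass.

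BGLU25 (LOC4341870) had log2 signals of 7.44 and 6.56 and a ratio of -0.88, the lowest of those under 2-fold. BGLU28 (LOC4345996) had 7.71 and 7.43, and its neighbour BGLU27 (LOC4345995) had 8.70 and 8.94. BGLU20 (LOC9270758) had 7.58 and 7.79. These 4 genes lay above the array medians on both arrays and within the 5th to 95th percentile of genes of like brightness. BGLU34 (LOC4348315) was dim, at 5.55 and 5.44. BGLU1 (LOC4324050), at 4.80 and 5.03, and BGLU38 (LOC4352082), at 3.67 and 1.65, did not pass the filter, and the signals of BGLU38 lay under the floor on both arrays. No ratio is read from these last 2 genes.

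**Figure D2:**
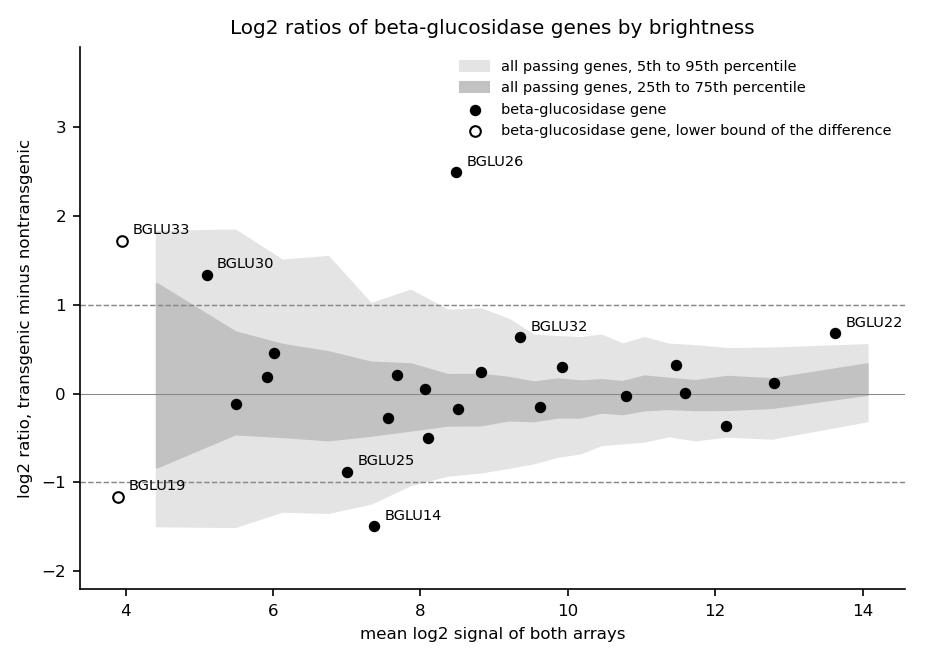
Log2 ratio (transgenic minus nontransgenic, y axis) against mean log2 signal of both arrays (x axis) for the 24 passing beta-glucosidase genes; grey bands give percentiles of all 15170 passing genes in 20 groups of brightness, dashed lines 2-fold, and open circles ratios with 1 side at the floor. BGLU26 and BGLU22 lie above the range from the 5th to the 95th percentile of their group, BGLU14 below it, and 21 members inside.

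Set against all passing genes divided into 20 groups by mean signal, 21 of the 24 members lay between the 5th and 95th percentile of their group. BGLU26 and BGLU22 lay above and BGLU14 below. The percentiles describe these arrays and are not a test. Of the 5 members with a 2-fold ratio, BGLU19, BGLU30 and BGLU33 were in the dimmest group, in which all 759 genes passed the filter through 1 array alone. The level filter sets much of the range in that group (-1.49 to 1.83), and nothing is read from their place in it.

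The array carried 39 probe sets for the family, 1 for each of 18 members, 2 for each of 6 and 3 for each of 3. Of these, 8 carry a suffix by which the array maker marks probe sets that read several transcripts or may cross-hybridise, a point that matters in a family of related genes. For 8 members at least 2 probe sets passed, and in 5 of them the brightest and the next agreed in sign, while over all 2414 such genes 60.1% did. The median difference between both log2 ratios was 0.59 in size, against 0.37 over all these genes. Probe sets of 1 gene read the same RNA on the same array, so this scatter leaves out that between plants and between arrays. In BGLU12, BGLU13 and BGLU32 the second probe set passed through the transgenic array alone, so the filter set the sign of its ratio. The count of 5 and the median of 0.59 include these pairs, and no agreement is read from them. How many of the 2414 genes have such a pair was not counted. BGLU16, BGLU3 and BGLU5 were the members with the closest readings, 0.18, 0.02 and 0.11 apart, and BGLU10 and BGLU12 had the widest, 0.88 and at least 0.82 apart. The gap of BGLU12 is a lower bound, since 1 of its signals lay under the floor, so BGLU10 and BGLU12 are not ranked. In BGLU16, BGLU3 and BGLU5 a reading of the pair came from a probe set with such a suffix. Of the 5 members with a 2-fold ratio, BGLU14, BGLU19, BGLU26 and BGLU33 had 1 probe set, and the second of BGLU30 did not pass.

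**Figure D3:**
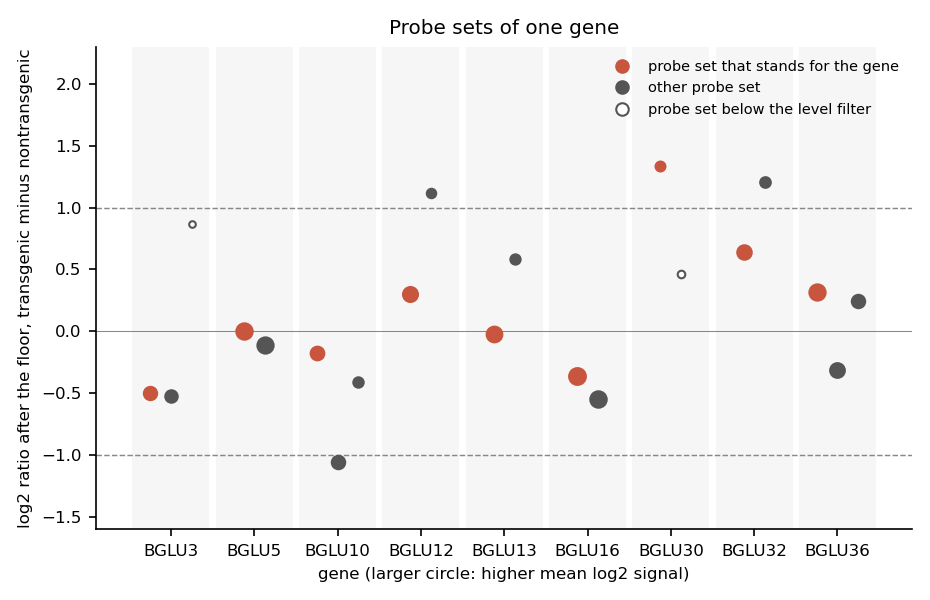
Log2 ratio after the floor (y axis) of every probe set of the 9 beta-glucosidase genes with more than 1; the red circle stands for the gene, open circles did not pass the level filter, a larger circle means a higher mean signal and dashed lines mark 2-fold. The readings of BGLU3 that passed, of BGLU5 and of BGLU16 lie close together, those of BGLU10, BGLU12 and BGLU32 include 1 at 2-fold and 1 under it, and those of BGLU36 lie on both sides of 0. The filter set the sign of the dimmer probe sets of BGLU12, BGLU13 and BGLU32, which passed through the transgenic array alone.

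The family is clustered in the genome. In the gene order of the reference, 20 of the 31 members lay in 7 groups of neighbours, with at most 3 other genes between consecutive members. BGLU31, BGLU32 and BGLU33 on chromosome 9 had no other gene between them, and they were the group in which all members were measured, passed and had the same sign, with log2 ratios from 0.12 to 1.72. BGLU33 passed through the transgenic array alone, so the filter set its sign and it adds nothing to a shared direction. Signs in this group also changed under other centrings, as given above. In the 2 groups on chromosome 4, signs were mixed under the authors' scaling: BGLU9, BGLU10, BGLU12 and BGLU13 ran from -0.18 to 0.30 and BGLU14, BGLU16 and BGLU18 from -1.49 to 0.45. Centred on the hybridisation controls, every member of both groups had a ratio below 0. On chromosome 5 the 3 measured members ran from -1.16 for BGLU19 to 0.68 for BGLU22. BGLU27 and BGLU28, adjoining genes on chromosome 8, had ratios of 0.24 and -0.28. Adjoining members of a family can share probe sequences, and how far their probe sets read one another was not tested.

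**Figure D4:**
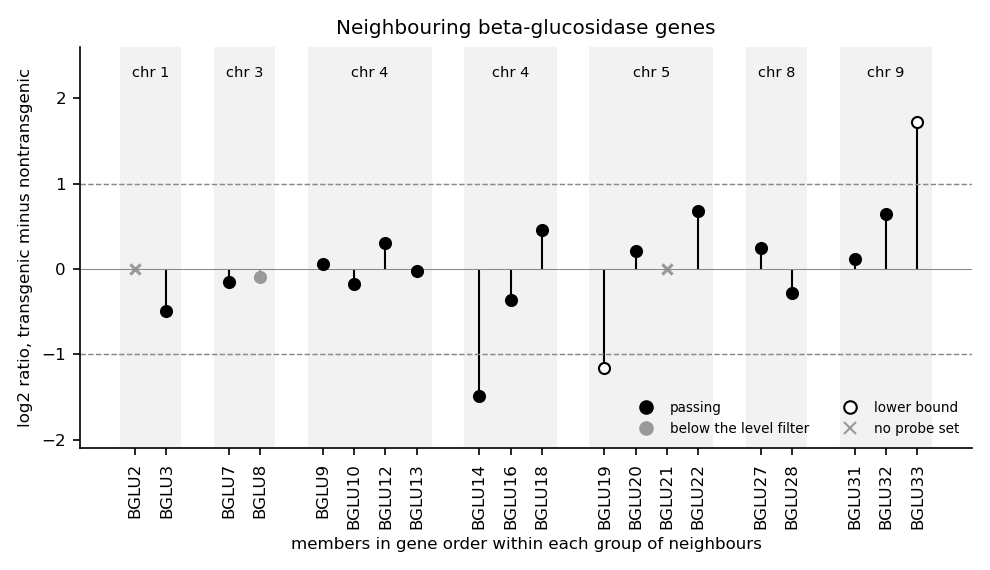
Log2 ratio (y axis) of the 20 beta-glucosidase genes that lie in 7 groups of neighbours, in gene order within each shaded group (x axis, not to scale); open circles are lower bounds, grey circles did not pass the level filter, crosses have no probe set and dashed lines mark 2-fold. The 3 genes on chromosome 9 are all above 0, and the groups on chromosomes 4, 5 and 8 have members on both sides of 0. The filter set the sign of BGLU33, which passed through the transgenic array alone.

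Genes that make or use the substrates of the family were counted by the same rules. Of 16 passing genes of lignin and monolignol synthesis, 1 was at least 2-fold higher and 0 were lower, with a median log2 ratio of -0.09. The higher gene was CAD7, a cinnamyl alcohol dehydrogenase family gene, at 1.89, under the floor, and 5.73, at least 2.49-fold. CAD7 passed the level filter through the transgenic array alone, so its ratio had to be above 0. PAL (LOC4330034), for phenylalanine ammonia-lyase at the entry of the pathway, stood at 13.04 and 12.27, a ratio of -0.76 and the lowest of the list. The other way, 4CL4 stood at 10.93 and 11.79 and CAD6 at 5.18 and 6.03, ratios of 0.86 and 0.85. A ratio above 0 was found for 6 of the 16 genes. The lower signal of BGLU14 was thus not joined by a 2-fold lower gene of this list.

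Of 15 passing genes of jasmonate synthesis and conjugation, 4 were at least 2-fold higher and 0 lower, and the list median was 0.01. The largest ratios were those of the lipoxygenase genes CM-LOX1, at 6.84 and 9.08, and CM-LOX2, at 4.95 and 6.92, and of the oxophytodienoate reductase gene OPR1, at 6.09 and 8.20. CM-LOX2 passed the level filter through the transgenic array alone, so its ratio had to be away from 0. JAR1, which joins jasmonate to isoleucine, stood at 10.78 and 10.36. The enzymes that free tuberonic acid, BGLU12 and BGLU13, had ratios of 0.30 and -0.02 beside these.

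Of 7 passing wall glucanases and xyloglucan enzymes, 0 were 2-fold higher and 1 was lower, with a list median of -0.20. The lower gene was XTH8, a xyloglucan endotransglucosylase, at 9.75 and 8.65, 2.14-fold. The 4 passing genes matched by name for abscisic acid synthesis and breakdown had ratios under 2-fold, from -0.66 for ABA8OX1 to 0.21 for ABA8OX2. As a background for the counts of all these lists, 10.4% of all passing genes had a 2-fold ratio in either direction, 5.99% higher and 4.42% lower.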

How the data were processed

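Leaf RNA of each genotype was hybridised to 1 one-colour oligonucleotide array after biotin labelling of cRNA, per the labels' protocols. The authors deposited log2 signals that MAS5 had produced, according to the submitters' processing notes. Its version, target for scaling and present or absent calls are not stated there. The log2 scale follows from the values: unlogged, both arrays had a mean of 500.1 with 2% trimmed at each end, so an overall difference in brightness is not visible. Of 57381 probe sets 187 were controls and were left out. By the platform's annotation, 22436 probe sets had 1 gene that is also in the reference, and 95 had several genes. The other 34663 had no gene or 1 that is not in the reference. The 17905 measured genes are thus by rule those found in the reference.

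The probe set with the highest mean signal stood for a gene. The floor, level filter and 2-fold limit are given with the results. Ratios and counts were computed with Python 3.11.15 and pandas 2.3.3, lowess (fraction 0.3, fitted over passing probe sets or over all that are no controls) with statsmodels 0.14.6, and the counting was tested on simulated data. With 1 array per group no test was run, and the number of arrays limits the precision. Members and lists were chosen with earlier results of these data known. All measured members are given. Of the other lists, up to 3 genes with the largest 2-fold ratios in each direction were named by rule. PAL, JAR1, the abscisic acid genes and the marker genes were named after their values were seen. Lists of beta-galactosidases and glucosyltransferases could not be filled by symbol and are not used. Columns of values left without a sample numbered 0.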

Additional observations from a re-analysis of the deposited data

How the results depend on the processing

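BGLU26 had a 2-fold ratio in all 12 alternatives and BGLU14 in all 11 that gave it a value, BGLU19 in 10 of 11, BGLU33 in 8 of 11 and BGLU30 in 6 of 10, without a change of direction except for BGLU33 in 1. BGLU26 and BGLU14 each have 1 probe set, without a suffix and with both signals above the array medians. Changes of the floor, the level filter, the suffix rule or the mean over probe sets therefore could not change their ratios of 2.49 and -1.49. For these genes such settings add no support, and only the pseudocount and the scaling settings could alter the ratios. With the floor at the median, 1 member was higher and 1 lower, and BGLU33, BGLU30 and BGLU19 had log2 ratios of 0.98, 0.61 and -0.46. With the level filter at the 75th percentile, 1 of 12 members was higher and 0 lower, and without the floor BGLU33 and BGLU19 had 4.37 and -3.75. Without probe sets that carry a suffix, BGLU32 took the place of BGLU30 among the 3 higher members. It was then read by its dimmer probe set, which passed through the transgenic array alone. The change of direction came from lowess centring fitted on passing probe sets alone, which gave BGLU33 a log2 ratio of -0.72 and BGLU19 one of -3.30, with 1 member higher and 2 lower. A dim probe set passes only if 1 array is bright, so at the dim end this fit rests on probe sets picked for a difference, and the fit over all probe sets was added after that was seen. Centring on the hybridisation controls was likewise chosen after seeing the data. It moved the median log2 ratio of all genes to -0.92 and that of the members to -0.82, with 1 member higher and 9 lower, so directions hold relative to the authors' scaling only. Without floor, level filter or suffixed probe sets, with the pseudocount of 16, with quantile normalization, lowess over all probe sets or median centring and with the mean over probe sets, 2 or 3 members were higher and 2 lower. The dimmest genes are limited by background. No paired analysis was possible because each group has 1 array.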
